A study of Mus musculus with 2 samples.

Results

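Gene-pair peaks are H4K16ac peaks that lay at the ends of neighbouring genes, so that a single peak touched more than 1 gene. They were chosen by position alone: a peak of either deposited list belonged when it overlapped the windows of 2 or more different protein-coding genes, a window being 1 kb on each side of an annotated gene start or end (mm10, RefSeq genes). Of 113378 peaks in both lists together, 3260 met the rule. They were 1687 of 58229 wild-type peaks (2.90%, 95% Wilson interval 2.76 to 3.04) and 1573 of 55149 KAT8-cKO peaks (2.85%, 2.72 to 2.995). In each list 31 of them touched 3 genes, and the others touched 2.

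The study profiled acetylation of lysine 16 on histone H4 (H4K16ac) by CUT&Tag, a method in which DNA near an antibody-bound chromatin mark is cut by a tethered transposase. The cells were primary macrophages (BMDMs) grown from mouse bone marrow with M-CSF at 20 ng/ml, and both groups received R848, an agonist of Toll-like receptor 7, at 100 ng/ml for 2 h before harvest. The groups were WT cells and KAT8-cKO cells, the latter deficient in the acetyltransferase KAT8. No unstimulated cells were part of the comparison. The sources used here name neither the Cre line nor the completeness of the deletion, nor the age, sex or number of the mice. Each group had 1 library, so there was no replicate check and no test between genotypes, and every interval below covers counting error over peaks only.

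H4K16ac loosens the contact between neighbouring nucleosomes and is common around active promoters. KAT8, also called MOF, is the main enzyme that places it, working in the MSL and NSL complexes. Many mammalian genes sit head to head: their starts lie back to back on opposite strands, and a single nucleosome-poor, CpG-rich stretch serves as promoter for both. Such bidirectional promoters are known for housekeeping genes of DNA repair, mitochondria and translation, and for the core histone genes.

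To show the sequence at these pairs, the complete stretch between the annotated starts is printed below for 11 head-to-head pairs. They are pairs with the highest folds in a list, the widest peaks, pairs whose peak was not overlapped by the other list, and histone pairs. A peak did not always cover the whole stretch. At H2ac22/H2bc22 the WT peak was 219 bp wide and the stretch 234 bp long. The sequences are the RefSeq reference (GRCm38.p6, the mm10 assembly), written 5′ to 3′ toward the second gene, or toward the first where "minus strand" is given. Capitals mark matches, on either strand, to short motifs. The box of the factor NF-Y was searched as CCAAT. That of the SP and KLF zinc fingers was searched as GGGCGG. The ETS family was searched as CCGGAAG, the factor YY1 as AAGATGGC and the cyclic AMP response element (CRE) as TGACGTCA. The TATA box was searched as TATAAA. The palindromic site of NRF1 was searched by its full consensus, and a core of the ZNF143 motif as TACANTTCC, which was added after the Erp44/Invs stretch had been read. A match is a description of the letters, not a site of binding.

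Erp44/Invs: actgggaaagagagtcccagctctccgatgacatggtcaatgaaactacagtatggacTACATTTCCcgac

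Aasdhppt/Kbtbd3: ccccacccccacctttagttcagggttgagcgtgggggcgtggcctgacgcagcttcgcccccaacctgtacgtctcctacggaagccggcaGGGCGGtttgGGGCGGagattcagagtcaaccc

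Fkbp3/Fancm: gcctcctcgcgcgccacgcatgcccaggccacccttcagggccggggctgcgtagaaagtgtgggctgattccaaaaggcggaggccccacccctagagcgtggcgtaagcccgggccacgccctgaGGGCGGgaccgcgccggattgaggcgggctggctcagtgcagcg

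Senp8/Myo9a: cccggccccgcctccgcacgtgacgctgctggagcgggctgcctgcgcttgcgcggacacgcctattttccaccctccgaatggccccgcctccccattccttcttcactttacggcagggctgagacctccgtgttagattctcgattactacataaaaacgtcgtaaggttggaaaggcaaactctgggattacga

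Glyr1/Ubn1: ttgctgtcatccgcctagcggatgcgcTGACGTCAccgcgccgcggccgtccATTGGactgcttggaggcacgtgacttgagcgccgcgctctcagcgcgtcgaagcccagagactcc

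Uqcrh/Lrrc41: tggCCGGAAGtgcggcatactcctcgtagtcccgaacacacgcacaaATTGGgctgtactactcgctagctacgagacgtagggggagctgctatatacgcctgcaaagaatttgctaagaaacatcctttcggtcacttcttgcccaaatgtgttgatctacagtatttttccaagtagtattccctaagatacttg

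Crnkl1/Cfap61: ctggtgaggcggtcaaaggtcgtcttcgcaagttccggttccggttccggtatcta

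Cenpj/Parp4: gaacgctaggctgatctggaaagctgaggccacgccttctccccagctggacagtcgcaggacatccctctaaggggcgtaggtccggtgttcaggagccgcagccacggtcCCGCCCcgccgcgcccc

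Moap1/Tmem251: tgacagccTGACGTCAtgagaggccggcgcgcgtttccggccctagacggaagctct

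H2ac11/H2bc11: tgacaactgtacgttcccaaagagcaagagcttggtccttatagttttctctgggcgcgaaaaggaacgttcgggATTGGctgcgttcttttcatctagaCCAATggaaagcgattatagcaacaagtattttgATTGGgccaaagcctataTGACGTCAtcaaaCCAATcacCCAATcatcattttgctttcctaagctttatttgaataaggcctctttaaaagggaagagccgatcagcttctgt

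H2ac22/H2bc22: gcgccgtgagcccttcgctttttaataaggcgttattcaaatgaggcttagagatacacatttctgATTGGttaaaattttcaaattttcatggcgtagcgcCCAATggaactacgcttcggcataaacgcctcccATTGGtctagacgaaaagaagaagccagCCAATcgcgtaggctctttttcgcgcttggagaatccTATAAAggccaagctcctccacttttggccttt

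The stretch of Erp44/Invs is chr4:48279636-48279706 (minus strand), that of Aasdhppt/Kbtbd3 chr9:4309618-4309742, that of Fkbp3/Fancm chr12:65073939-65074109 (minus strand) and that of Senp8/Myo9a chr9:59750650-59750847 (minus strand). Glyr1/Ubn1 is chr16:5049939-5050056, Uqcrh/Lrrc41 chr4:116075071-116075268, Crnkl1/Cfap61 chr2:145934701-145934756 (minus strand), Cenpj/Parp4 chr14:56575490-56575618 and Moap1/Tmem251 chr12:102743662-102743718. The histone stretches are chr13:22042950-22043197 for H2ac11/H2bc11 and chr13:21787249-21787482 (minus strand) for H2ac22/H2bc22. All lie outside both annotated gene bodies. They ran from 56 to 248 bp in length. Stretches over 250 bp were left out, so the upper end of that range was limited by this rule. Not every shorter stretch of the named pairs is printed. The stretch of Fkbp3/Fancm held 17 CpG and 71.9% G or C, whereas that of H2ac11/H2bc11 held 9 CpG, 42.3% G or C and 6 matches, 5 of them CCAAT.

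As a check of the labels, the Kat8 gene (chr7:127912517-127925838) carried a gene-end peak of fold 2.46 (−log10 q 0.780) in the WT list and none in the KAT8-cKO list. That peak touched 1 gene and is no gene-pair peak, and a missing weak peak does not show a deletion. Over all 21883 protein-coding genes, 10246 had a gene-end peak in WT and 9471 in KAT8-cKO cells. Of 10 macrophage marker genes, 8 had a gene-end peak in WT and 6 in KAT8-cKO cells. None of 4 B cell markers had a peak in either list, and of 5 T cell markers 2 had a peak in WT and 1 in KAT8-cKO cells. Of 4 dendritic cell markers 2 had a peak in each list, of 4 fibroblast markers 2 in WT and 1 in KAT8-cKO cells, and of 5 neutrophil markers 1 in each, so a peak at a marker gene did not by itself set the cell types apart. The peak lists give no read depth, so counts of peaks and their q-values cannot be separated from depth.

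Gene-pair peaks were stronger and wider than other peaks of the same list. The peak caller gives each peak a fold over its local background and a q-value. In WT the median fold was 3.37 for gene-pair peaks, 3.18 for the 9314 peaks at the ends of 1 gene (single-gene peaks) and 2.83 for the 47228 peaks away from gene ends. In KAT8-cKO the medians were 3.05, 2.99 and 2.78. The median −log10 q of gene-pair peaks was 2.84 in WT and 1.93 in KAT8-cKO, beside 2.17 and 1.66 for single-gene peaks. Their median width was 516 bp in WT and 442 bp in KAT8-cKO, beside 417 and 371 bp. In WT 156 of them (9.25%; all WT peaks, 1.90%) were 1 kb or wider, and in KAT8-cKO 102 (6.48%; all peaks, 1.38%). A wider peak also has more chance to reach a second gene's window, so width is in part tied to the rule. None of the gene-pair peaks reached the values of the strongest peaks in the lists: the highest fold was 9.03, beside 42.1 for single-gene peaks and 46.5 away from genes in WT.

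The strongest WT gene-pair peak covered the 35 bp between Tpmt, which encodes thiopurine methyltransferase, and Kdm1b, a histone H3 lysine 4 demethylase (chr13:47043063-47044477, 1415 bp). Its fold was 9.03 and its −log10 q 30.1, and the KAT8-cKO peak at the same place reached a fold of 6.23 with a −log10 q of 15.1. Erp44/Invs, encoding a chaperone of the endoplasmic reticulum and the ciliary protein inversin, had folds of 8.66 in WT and 5.66 in KAT8-cKO. Plag1/Chchd7 followed with 8.30 and 5.34, Aasdhppt/Kbtbd3 with 7.81 and 4.53, and Derl2/Mis12 with 7.80 and 4.06. Derl2 acts in degradation of misfolded proteins and Mis12 in the kinetochore. All 10 pairs with the highest WT folds had a KAT8-cKO peak over them. Every one of those 10 had a lower fold in the KAT8-cKO list than in the WT list, but they were picked for high WT values, so a lower value in the other list is built into the choice.

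The strongest KAT8-cKO peak lay at Srd5a1/Nsun2 (chr13:69611306-69612189), a steroid reductase gene and the gene of a cytosine methyltransferase of tRNA. Its fold was 7.16 in KAT8-cKO and 7.17 in WT. Senp8/Myo9a (6.81 in KAT8-cKO, 5.20 in WT), Dtl/Ints7 (6.72, 5.57), Glmn/Rpap2 (6.41, 5.35) and Atm/Npat (6.40, 5.89) had a higher fold in the KAT8-cKO list than in the WT list. Atm encodes the kinase of the DNA double-strand break response and Npat the coactivator of histone genes. Pus7l/Irak4 had folds of 6.16 in KAT8-cKO and 5.81 in WT, and Irak4 encodes a kinase of the Myd88 complex that signals from Toll-like receptors. Fam160a2/Cnga4, Tpmt/Kdm1b and Fkbp3/Fancm were among the 10 highest in KAT8-cKO and had still higher folds in WT.

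**Figure D1:**
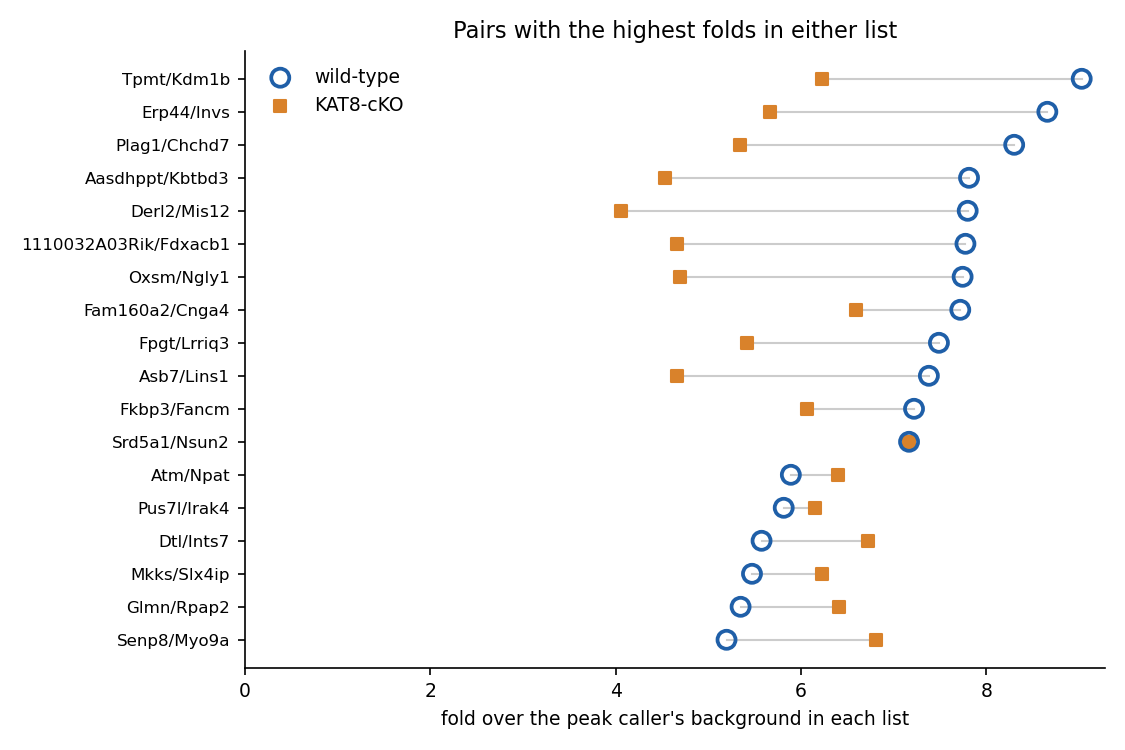
Fold over the peak caller's background at the 18 gene pairs that were among the 10 highest gene-pair peaks of either list, WT as open circles and KAT8-cKO as squares, with 1 library each. The circles lie to the right of the squares for the pairs chosen in WT and the order turns for most pairs chosen in KAT8-cKO, as at Senp8/Myo9a (5.20 and 6.81).

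Ranking by q in place of fold added Duxf3/Gm4981, a tandem pair in a cluster of near-identical Dux copies, with a −log10 q of 26.0 in WT and 22.8 in KAT8-cKO at folds of only 4.21 and 3.67. Gm40364/Gm40363 had a WT −log10 q of 25.1 at a fold of 2.90. No source used here says how reads from near-identical copies were assigned, so both values are uncertain. The widest peaks were 1785 bp at Ewsr1/Rhbdd3 in WT (423 bp in KAT8-cKO) and 2012 bp at Uqcrh/Lrrc41 in KAT8-cKO (921 bp in WT). Uqcrh encodes a hinge subunit of respiratory complex III. At Glyr1/Ubn1 the WT peak was 1728 bp wide and the KAT8-cKO peak 570 bp, whereas at Hdlbp/Septin2 the widths were 1727 and 1501 bp. Among peaks with 3 genes, Cmc4/Mtcp1 on the X chromosome had the highest WT fold (6.11; KAT8-cKO 4.91), and Trappc13/Trim23 the highest in KAT8-cKO (5.83; WT 4.59).

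Most gene-pair peaks of each list were overlapped by a peak of the other. By 1 bp or more, 1194 WT gene-pair peaks (70.8%, 68.6 to 72.9) met a KAT8-cKO peak and 1216 KAT8-cKO gene-pair peaks (77.3%, 75.2 to 79.3) met a WT peak. Over all peaks the shares were 33.2% in WT and 35.6% in KAT8-cKO, and over single-gene peaks 58.9% and 66.0%. The overlapping peak was itself a gene-pair peak in 96.1% and 97.9% of cases, and the summits of both lay a median of 120 bp apart from the WT side (122 bp from the KAT8-cKO side). Counted as gene pairs, 1601 distinct pairs had a peak in WT and 1460 in KAT8-cKO. Of these, 1209 had one in both, which is 75.5% of the WT pairs and 82.8% of the KAT8-cKO pairs. The pairs comprised 2974 genes in WT and 2731 in KAT8-cKO, with 2318 in both, out of 21883 genes.

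Overlap was more frequent among stronger peaks, so gene-pair peaks were set beside single-gene peaks within each decile of their list by −log10 q. Weighted to the strengths of the gene-pair peaks, single-gene peaks were overlapped in 66.2% (WT) and 70.8% (KAT8-cKO) of cases. Gene-pair peaks thus exceeded single-gene peaks of like strength by 4.57 percentage points in WT (2.26 to 6.89) and by 6.46 in KAT8-cKO (4.23 to 8.69). In the strongest decile of WT the shares were 93.9% and 92.9% and their intervals overlapped. In the decile with −log10 q from 1.95 they were 71.0% (64.1 to 77.0) for gene-pair and 59.3% (56.3 to 62.3) for single-gene peaks, the only 1 of the 10 WT deciles where the intervals were apart. In WT the gene-pair share was the higher in 8 deciles and the lower in 2, both among the weakest peaks. In KAT8-cKO it was the higher in all 10, with intervals apart in 4. With width matched as well the excess was 2.84 points in WT (0.533 to 5.15) and 4.82 in KAT8-cKO (2.61 to 7.04). When shared peaks were required to have summits within 200 bp, it was 1.41 points in WT (−1.17 to 3.98) and 2.55 in KAT8-cKO (−0.112 to 5.21), so both intervals then held 0. With both lists cut to peaks with a −log10 q of at least 5, the difference was −0.490 in WT (−5.30 to 4.32). It was 2.34 in KAT8-cKO (−3.53 to 8.22), and both intervals lay on both sides of 0.

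**Figure D2:**
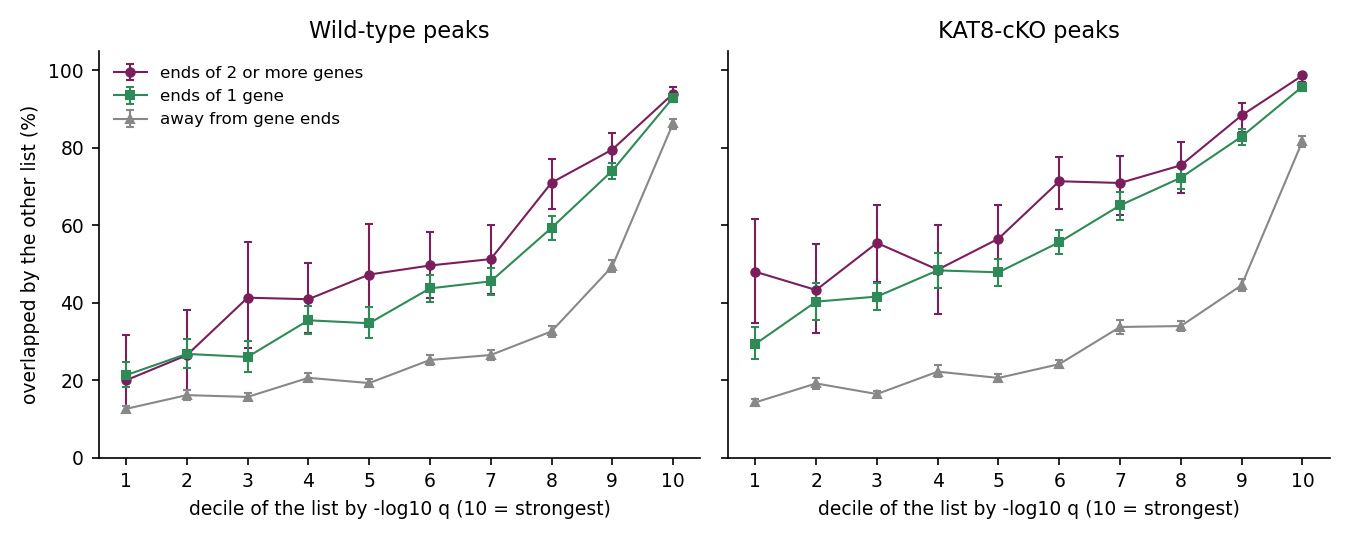
Percent of peaks overlapped by 1 bp or more by the other list, in deciles of each list by −log10 q, for gene-pair peaks, single-gene peaks and peaks away from gene ends. Bars are 95% Wilson intervals over peaks of 1 library per list. Peaks away from gene ends lie lowest in every decile, and in the strongest decile of WT gene-pair and single-gene peaks meet at 93.9% and 92.9%.

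More WT than KAT8-cKO gene-pair peaks passed strict thresholds. A q under 0.05 was reached by 77.8% of WT (all WT peaks, 46.9%) and 71.8% of KAT8-cKO gene-pair peaks (all peaks, 47.0%). A −log10 q of at least 5 was reached by 484 WT (28.7%; all WT peaks, 7.12%) and 236 KAT8-cKO gene-pair peaks (15.0%; all peaks, 4.86%), a ratio of 0.488 (0.417 to 0.570). The ratio was 0.483 (0.445 to 0.524) for single-gene peaks and 0.840 (0.786 to 0.899) for peaks away from gene ends in the same lists. The intervals of the gene-pair and single-gene ratios overlapped. At a −log10 q of at least 10 the gene-pair counts were 130 and 32 (single-gene peaks 408 and 123, away from gene ends 649 and 588, all peaks 1187 and 743). At 20 or more they were 14 and 2 (35 and 14, 286 and 305, and 335 and 321). Such counts also depend on how deeply a library was read and on its background, which cannot be told apart from genotype with 1 library per group. Of the 484 strong WT peaks, 185 (38.2%, 34.0 to 42.6) met a KAT8-cKO peak that was also past 5. Another 281 met only a weaker one and 18 met none. The share past 5 was 36.2% (34.0 to 38.5) for strong WT single-gene peaks and 53.3% for those away from gene ends. Of the 236 strong KAT8-cKO peaks, 186 (78.8%, 73.2 to 83.5) met a WT peak past 5, 49 a weaker one and 1 none. Single-gene peaks stood at 75.3% (72.3 to 78.0) in that direction, and peaks away from gene ends at 63.7%.

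Head-to-head pairs made up the largest share of the pairs under these peaks. Strand was given for both genes of 1259 WT and 1181 KAT8-cKO peaks, each assigned to the 2 gene ends nearest its summit. Of these, 844 (67.0%, 64.4 to 69.6) and 816 (69.1%, 66.4 to 71.7) lay at head-to-head pairs. Tandem pairs, where the end of a gene precedes the start of the next on the same strand, accounted for 251 and 201. Tail-to-tail pairs, where 3′ ends converge, accounted for 102 in each list, and other arrangements such as nested genes for 62 in each. The median fold in WT was 3.66 at head-to-head, 3.09 at tandem and 2.63 at tail-to-tail pairs. In KAT8-cKO it was 3.23, 2.88 and 2.54 in the same order. A −log10 q of at least 5 was reached by 321 head-to-head peaks in WT (38.0%) and 155 in KAT8-cKO (19.0%). Single-gene peaks at a start reached it in 22.8% and 11.6% of cases. The ratio of KAT8-cKO to WT counts was 0.483 (0.399 to 0.585) for head-to-head peaks and 0.469 (0.428 to 0.514) for these single-gene peaks. The same threshold was reached by 43 tandem peaks in WT (17.1%) and 22 in KAT8-cKO (10.9%). None of the 102 tail-to-tail peaks of either list reached it, which allows a share of up to 3.63% by the Wilson interval. Single-gene peaks at a 3′ end reached it in 32 of 1279 cases in WT and 25 of 1136 in KAT8-cKO. Both shares lie below that upper bound, so the lack of such peaks does not set tail-to-tail pairs apart from other 3′ ends. The highest fold of tail-to-tail peaks was 4.00 in WT and 3.45 in KAT8-cKO.

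The overlap between lists followed the same order. Head-to-head peaks were overlapped in 80.6% of cases in WT (77.8 to 83.1) and 86.4% in KAT8-cKO (83.9 to 88.6). Tandem peaks were overlapped in 59.4% and 70.6%, and tail-to-tail peaks in 23.5% (16.3 to 32.6) and 27.5% (19.7 to 36.8). Set beside single-gene peaks at a gene start and of like strength, head-to-head peaks were overlapped more often by 5.75 percentage points in WT and 5.97 in KAT8-cKO. Tandem peaks were overlapped less often than such single-gene peaks, by 6.62 points in WT and 3.04 in KAT8-cKO. The sets are not quite alike. At tandem pairs with separate bodies, 85.2% of WT and 84.7% of KAT8-cKO summits lay nearer to the start, and the others nearer to a 3′ end. Single-gene peaks at a 3′ end were overlapped in only 24.3% (WT) and 25.8% (KAT8-cKO) of cases. The share in single-gene peaks at a start and of like strength was 66.0% in WT, just outside the interval of tandem peaks (53.2 to 65.3). In KAT8-cKO it was 73.7%, inside the interval (64.0 to 76.5). Tail-to-tail peaks differed from single-gene peaks at a 3′ end of like strength by 0.0189 points in WT and 4.53 in KAT8-cKO, within the counting interval of the 102 peaks.

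The same picture held when counting started from the genome rather than from peaks. The annotation held 4809 pairs of genes with ends within 2 kb, of which 33.3% carried a gene-pair peak in WT and 30.3% in KAT8-cKO. Of 1005 head-to-head pairs, 767 carried one in WT (76.3%, 73.6 to 78.8) and 716 in KAT8-cKO (71.2%, 68.4 to 74.0). Both lists had a peak at 667 of these pairs, WT alone at 100, KAT8-cKO alone at 49, and neither at 189. Of 902 tandem pairs 28.0% and 22.3% carried a peak, and of 1048 tail-to-tail pairs 10.6% and 10.9%. Gene starts with no other gene end within 2 kb carried a peak in 42.2% (WT) and 38.5% (KAT8-cKO) of 12153 cases, and lone 3′ ends in 8.27% and 7.72% of 11937. Counting only peaks with a −log10 q of at least 5, all pairs were at 10.4% in WT and 5.05% in KAT8-cKO. Head-to-head pairs were at 32.7% (29.9 to 35.7) and 15.7% (13.6 to 18.1), and lone starts at 11.1% and 5.21%. A head-to-head pair brings 2 starts, and lone starts were not matched for expression, which was not measured here.

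**Figure D3:**
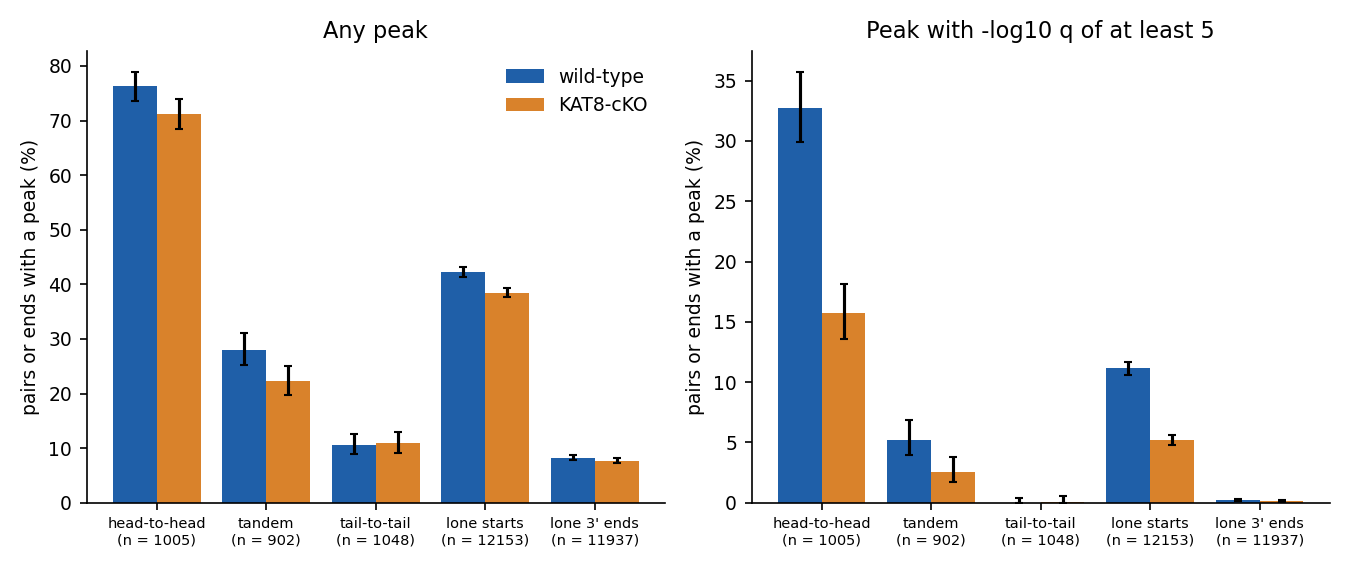
Percent of gene pairs by orientation, and of lone gene starts and lone 3′ ends, that carried a peak in WT and in KAT8-cKO, for any peak (left) and for peaks with a −log10 q of at least 5 (right). Bars are 95% Wilson intervals over pairs or ends; head-to-head pairs stand highest in both panels (76.3% and 71.2% on the left) and tail-to-tail pairs near lone 3′ ends.

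Among head-to-head pairs with separate gene bodies, the share with a peak hardly depended on the gap between the starts up to 500 bp. It was 85.4% in WT and 80.6% in KAT8-cKO for gaps of up to 100 bp, 87.9% and 79.5% for 100 to 200 bp, and 87.4% and 80.7% for 200 to 500 bp. For gaps of 500 to 1000 bp it was 61.9% and 54.8%, and for 1000 to 2000 bp 18.8% and 9.38%. The windows of a wide pair overlap less or not at all, so a peak must be broader or better placed to touch both, and the rule itself sets at least some of the fall at wide gaps. Strong peaks were most frequent at gaps of 200 to 500 bp, with a −log10 q of at least 5 at 45.4% of pairs in WT (36.7 to 54.3) and 25.2% in KAT8-cKO (18.3 to 33.7). At gaps up to 100 bp they stood at 33.7% (28.5 to 39.3) and 15.6% (11.9 to 20.3), with intervals that overlap those at 200 to 500 bp.

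Most summits lay inside a gene and not between the starts. Over 549 WT peaks at head-to-head pairs with separate bodies, the median gap was 101 bp, and the summit lay a median of 146 bp from the middle of the starts. It fell between the starts in 23.3% of peaks and inside the body of either gene in 76.7%. In KAT8-cKO (522 peaks) the distance was 186 bp, and 20.9% lay between. The summit was on the side of the gene with the higher coordinate in 47.9% of WT and 47.1% of KAT8-cKO peaks, close to an even split. The peak covered both starts in 63.4% of WT and 54.6% of KAT8-cKO cases. For gaps up to 100 bp 4.40% of WT summits lay between the starts, and for gaps of 200 to 500 bp 55.4%, a share that grows with the room between the starts. At tandem pairs, 85.2% of WT and 84.7% of KAT8-cKO summits lay nearer to the start of the downstream gene than to the end of the upstream one.

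**Figure D4:**
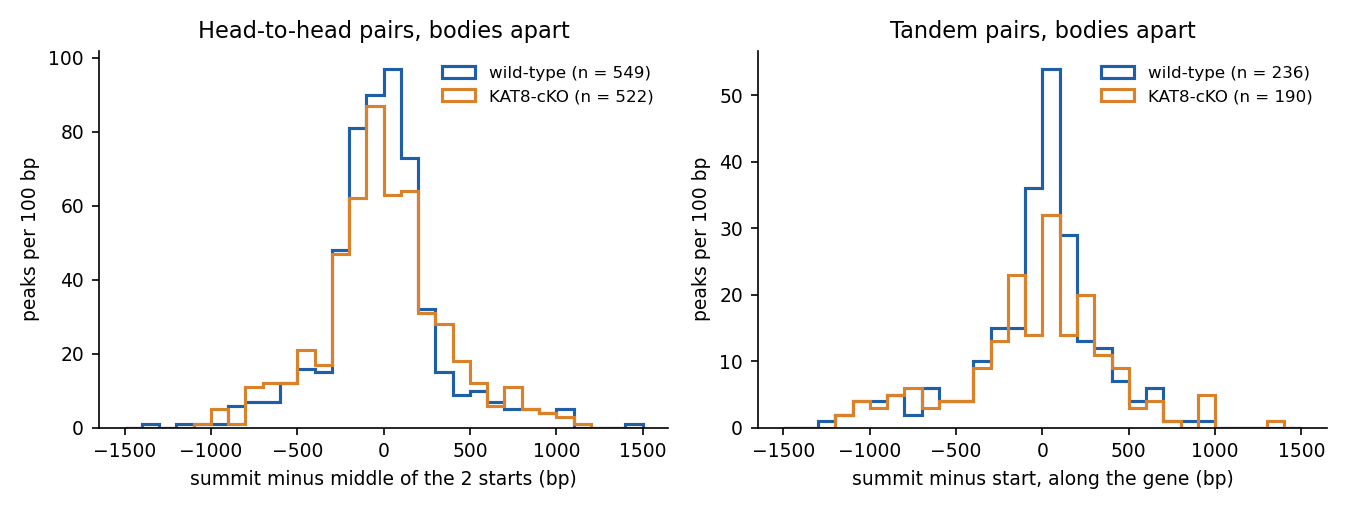
Number of peaks per 100 bp by the place of the summit, relative to the middle of the starts at head-to-head pairs (left) and to the start of the downstream gene at tandem pairs (right, positive values inside that gene), in WT and KAT8-cKO. Summits lie on both sides of the middle at head-to-head pairs (549 and 522 peaks) and on both sides of the start at tandem pairs, where 54.2% of WT summits lie downstream.

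The promoters under head-to-head peaks were rich in CpG and held certain motifs more often than other promoters. Promoter sequences of 300 bp, from 250 bp before a start to 50 bp after it, were matched for 17491 genes, and 14450 whose start lay within 250 bp of the annotated gene end were used. At least 10 CpG were found in 95.2% of promoters at WT head-to-head peaks, in 83.4% of those at WT single-gene peaks, in 25.9% of promoters without a peak in either list, and in 55.8% of all promoters. The ETS letters stood in 29.4% (27.0 to 32.0) of head-to-head promoters, 17.7% (16.6 to 18.8) of single-gene, 4.04% of peakless and 12.1% of all promoters. The YY1 letters stood in 8.53% (7.13 to 10.2), 4.44% (3.88 to 5.09), 1.51% and 3.34%. Among promoters with at least 10 CpG, a restriction chosen after the shares were seen, ETS stood at 30.8% beside 20.2% for single-gene peaks and 10.1% without a peak. YY1 stood at 8.97%, 5.03% and 2.67%. In KAT8-cKO the head-to-head shares were 29.6% for ETS and 9.02% for YY1. Promoters at WT tandem peaks (212) were nearer to the single-gene ones. At least 10 CpG were found in 80.2% of them, ETS in 23.1% (17.9 to 29.2) and YY1 in 5.19% (2.92 to 9.05).

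Of the other motifs, TATAAA was less frequent in head-to-head than in single-gene promoters, and the rest stood at like shares in both. The SP/KLF letters were found in 68.2% of WT head-to-head and 67.7% of single-gene promoters (all promoters, 45.6%), and CCAAT in 42.8% and 41.1% (all, 40.2%). CRE was found in 3.84% and 3.66% (all, 2.46%), NRF1 in 3.31% and 2.47% (all, 1.47%), and the ZNF143 core in 4.07% and 3.03% (all, 2.24%), with overlapping intervals. TATAAA was found in 4.30% (3.33 to 5.55) of head-to-head, 6.62% (5.93 to 7.39) of single-gene and 23.0% of peakless promoters (all, 14.3%). At WT tandem peaks it stood at 8.02% (5.07 to 12.5). The promoters of a close head-to-head pair contain much of the same sequence, so their matches are not independent, and the intervals are too narrow for that reason. Motifs can share bases: CCAAT read on the other strand can run into GGGCGG, and the end of the ETS letters is the beginning of the YY1 letters. None of the 14450 promoters held ETS and YY1 letters joined in that way, so their counts come from separate matches.

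**Figure D5:**
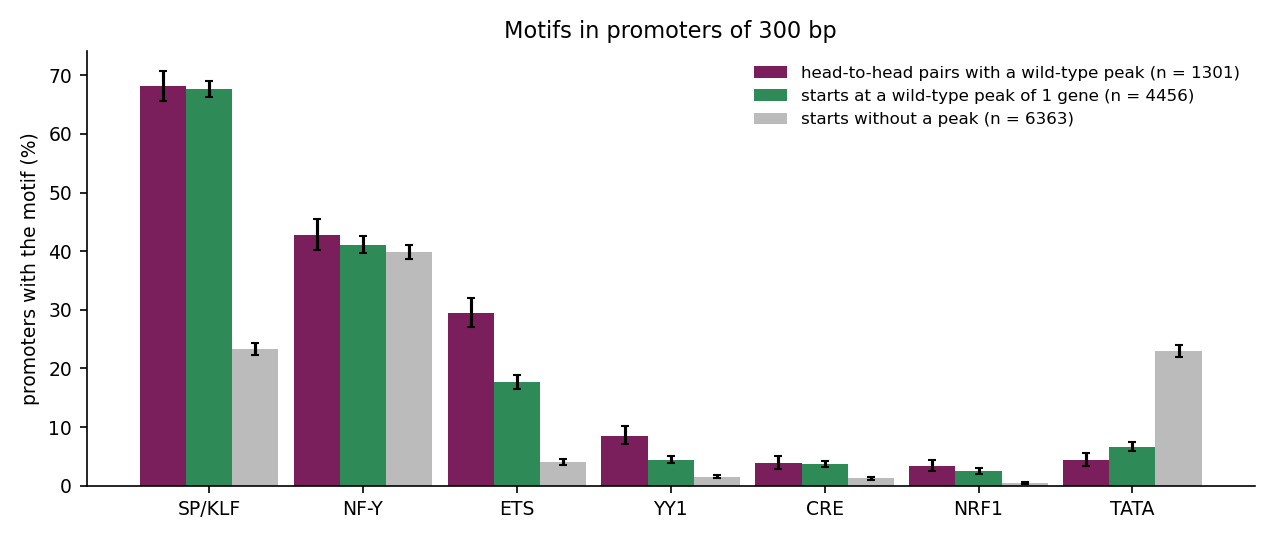
Percent of promoters of 300 bp that held each motif on either strand, for head-to-head pairs with a WT peak (1301 promoters), starts at WT peaks of 1 gene (4456) and starts without a peak in either list (6363), with 95% Wilson intervals. The first group stands above the second for ETS (29.4% and 17.7%) and YY1 (8.53% and 4.44%), and level with it for SP/KLF and NF-Y.

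A list of 25 pairs was drawn up from general knowledge of bidirectional promoters, with earlier results of these data known. In this annotation 5 of them had ends over 2 kb apart. Of the remaining 20, 16 carried a peak in WT and 15 in KAT8-cKO, and 14 in both. These shares, 80% and 75%, are over pairs of any orientation, some without a known strand. Of the 13 known to be head-to-head, 10 carried a peak in WT and 11 in KAT8-cKO. Of all head-to-head pairs, 76.3% and 71.2% did. Brca1/Nbr1 had folds of 4.66 in WT and 3.42 in KAT8-cKO, and Prkdc/Mcm4, encoding a kinase of end joining and a subunit of the replicative helicase, 4.83 and 4.12. Hspd1/Hspe1, the mitochondrial chaperonins, had 4.17 and 3.27, Gart/Son 5 and 3.20, and Ppat/Paics, of purine synthesis, 4.46 and 4.31. Ung/Alkbh2, 2 base-repair genes, had 4.73 and 3.02. At Atm/Npat the KAT8-cKO value was the higher (5.89 and 6.40), and at Mrps12/Sars2 (2.51 and 2.65) and Hars/Hars2 (2.82 and 3.01) also, from weak peaks. Surf1/Surf2 had a peak in KAT8-cKO only (fold 2.77), and Dtx3l/Parp9 (2.91) and Trappc1/Kcnab3 (2.40) in WT only. Col4a1/Col4a2, the collagen IV pair, Tk1/Afmid and Fancd2/Fancd2os had none in either list.

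Housekeeping groups were often at gene-pair peaks. Over all 21883 protein-coding genes 13.6% lay at a gene-pair peak in WT and 12.5% in KAT8-cKO, and 32.2% had another gene end within 2 kb. Of 54 DNA repair genes, 22 lay at one in WT, 23 in KAT8-cKO and 20 in both, and 66.7% had such a neighbour. Atm and Xrcc4 (3.42 in WT and 5.12 in KAT8-cKO, beside Tmem167) were among them. Fancb, of the Fanconi pathway, lay at the X-linked pair Mospd2/Fancb with a WT fold of 5.62 and no KAT8-cKO peak. Of 73 respiratory chain genes, 33 were at a gene-pair peak in WT, 34 in KAT8-cKO and 31 in both. Ndufa8 (6.47 and 5.14, beside Morn5), Sdha (5.56 and 3.42, beside Ccdc127) and Atp5e (5.27 and 5.90, beside Prelid3b) had high values. Of 78 mitochondrial ribosome genes the numbers were 31, 30 and 26, and Mrpl46/Mrps11, a pair within the list, had folds of 6.89 and 4.40. Mrpl32 shared its peak (6.79 and 4.24) with the proteasome subunit gene Psma2.

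Other lists gave 15, 13 and 12 of 37 tRNA synthetase genes in WT, KAT8-cKO and both. They gave 13, 12 and 11 of 40 proteasome genes, and 17, 15 and 15 of 51 genes of RNA polymerases and general transcription. Rars2 (5.17 and 5.04, beside Orc3), Fars2 (4.70 and 5.31, beside Lyrm4), Psme2 (5.04 and 4.17, beside Rnf31) and Polr2h (5.97 and 3.39, beside Clcn2) were examples. Among genes with a neighbour within 2 kb, 42.2% of all genes, 61.1% of DNA repair, 70.2% of respiratory chain and 62.0% of mitochondrial ribosome genes were at a WT gene-pair peak. No set test was run on these lists, whose shares are given beside those of all genes only.

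Some genes of the R848 response lay at gene-pair peaks, most of them weak. Of 22 genes of the Toll-like receptor 7 pathway, 5 lay at one in WT and 3 in KAT8-cKO. These were 22.7% and 13.6%, beside 13.6% and 12.5% of all genes. Irak4 (5.81 and 6.16) is described above. Ikbkg, the regulatory subunit of the IκB kinase, lay at Fam3a/Ikbkg with a fold of 6.35 (−log10 q 10.9) in WT and 2.56 (0.663) in KAT8-cKO. Myd88, the adaptor of the receptors, lay at Myd88/Acaa1a with a WT fold of 3.79. That WT peak was overlapped by a KAT8-cKO peak that did not itself reach both windows. Chuk had folds of 3.26 and 3.47 beside Cwf19l1. Of 36 interferon-stimulated genes, 9 lay at a gene-pair peak in WT and 6 in KAT8-cKO, all with a −log10 q under 5. Ifit1bl2/Ifit1 had 3.72 and 3.20 and Psmb9/Tap1, of antigen processing, 2.82 and 2.52.

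Of 32 inflammatory genes, 7 were at a gene-pair peak in WT and 1 in KAT8-cKO (21.9% and 3.13%, beside 13.6% and 12.5% of all genes). At any gene-end peak the numbers were 21 and 18, beside 10246 and 9471 of all 21883 genes. The 7 came from 5 peaks: Cxcl16/Zmynd15 (3.27), Nfkbib/Sirt2 (2.89), Ccl3/Ccl4 (2.85), Nfkbie/Slc35b2 (2.52) and Tnf/Lta (2.39). Nfkbib/Sirt2, with a KAT8-cKO fold of 3.95, was the only one of them with a gene-pair peak in both lists. Ccl3 and Ccl4 encode chemokines and Tnf and Lta cytokines, and their WT peaks had a −log10 q of only 1.33 and 0.859. All 5 WT peaks had a −log10 q under 5, and with 1 library per group the difference in counts was not tested. None of 12 KAT8 complex genes was at a gene-pair peak in WT and 1, Mcrs1 beside Kcnh3 (fold 1.99), in KAT8-cKO. Of 22 macrophage identity genes, Cd68 beside Eif4a1 (2.56) was at one in WT and none in KAT8-cKO. None of 20 genes of unrelated tissues was at one in either list.

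Replication-dependent histone genes had the largest difference in counts between WT and KAT8-cKO among the gene lists. Of 63, 33 genes at 16 assigned pairs lay at gene-pair peaks in WT and 15 genes at 7 pairs in KAT8-cKO, with 13 genes in both, 20 in WT only and 2 in KAT8-cKO only. The shares were 52.4% and 23.8%, beside 13.6% and 12.5% of all genes. Another gene end lay within 2 kb of 77.8% of them, beside 32.2% of all genes. At any gene-end peak the numbers were 43 and 17, beside 10246 and 9471 of all 21883 genes. The peaks were of middling strength: WT folds ran from 2.44 to 4.09, and none reached a −log10 q of 5 in WT. H2ac11/H2bc11, printed above, had folds of 4.09 in WT and 3.42 in KAT8-cKO. H2ac6/H2bc4 had 4.09 and 2.56, and H2ac22/H2bc22 had 3.18 in WT and no KAT8-cKO gene-pair peak. H2ac18/H3c14 went the other way, with 3.76 in WT and 4.53 in KAT8-cKO. Its KAT8-cKO peak did pass a −log10 q of 5, with 6.08. H2ac12/H2bc12 had a KAT8-cKO peak only (3.63). Many of these genes are near-identical copies, between which short reads can be split or lost, so their values are uncertain.

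Gene-pair peaks without an overlap in the other list were mostly weak. In WT they numbered 493, with a median fold of 2.75 and a median −log10 q of 1.38, and in KAT8-cKO 357, with 2.66 and 1.06. Lack of overlap did not always mean lack of signal at the genes. For 127 of the WT peaks (25.8%) the other list had a gene-pair peak at the same genes that failed to touch it, and for 183 (37.1%) it had no peak at the ends of any of the genes. In KAT8-cKO the numbers were 125 (35.0%) and 83 (23.2%). Among the 10 with the highest WT folds, Mospd2/Fancb (5.62), Foxh1/Ppp1r16a (5.39), Coa3/Cntd1 (4.89), Zfp944/Zfp758 (4.89) and Cenpj/Parp4 (4.58) had no KAT8-cKO peak at either gene. Cenpj encodes a centriole protein and Coa3 an assembly factor of cytochrome c oxidase. Rpl4/Snapc5 (5.15), Crnkl1/Cfap61 (5.13), Acoxl/Bcl2l11 (5.09), Clpp/Alkbh7 (4.77) and Hacl1/Btd (4.64) had other KAT8-cKO peaks there, the strongest with folds of 2.33 to 2.88.

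In KAT8-cKO the highest folds without overlap were lower. Zswim7/Ttc19 had 4.06 and Moap1/Tmem251 3.84. Of the 10 highest, only H2ac12/H2bc12 (3.63) had no WT peak at either gene. At Txndc9/Eif5b the KAT8-cKO peak (3.64) lay beside a WT gene-pair peak of fold 4.98, and at Hps5/Gtf2h1 (3.75) beside one of 4.18. These are pairs marked in both lists whose peaks were placed apart. Of the 493 WT peaks, 18 had a −log10 q of at least 5, and of the 357 KAT8-cKO peaks 1 did. Past that threshold, 96.3% of WT gene-pair peaks were overlapped, beside 95.5% of single-gene peaks and 94.6% of all WT peaks. The KAT8-cKO shares were 99.6%, 98.6% and 96.2% in the same order.

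On the X chromosome, 26 WT and 14 KAT8-cKO gene-pair peaks were found, beside 151 and 93 single-gene peaks. Of the 26, 12 were overlapped by KAT8-cKO (46.2%, 28.8 to 64.5), beside 71.2% on the autosomes. X-linked WT gene-pair peaks had a median −log10 q of 2.17 and autosomal ones 2.86. WT single-gene peaks were overlapped in 35.1% of cases on the X and 59.4% on the autosomes. Of the 14 in KAT8-cKO, 11 were overlapped by WT (78.6%, 52.4 to 92.4), beside 77.3% on the autosomes. KAT8-cKO single-gene peaks were overlapped in 57.0% of cases on the X and 66.2% on the autosomes. No gene-pair peak lay on the Y chromosome.

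Peaks just inside and just outside the limit of 1 kb had like folds. Just inside it were Cct5/Cmbl and Rps21/Cables2 in WT (folds 2.93 and 3.19, the second gene 1000 bp away) and Atp6v1fnb/Kcp and Acoxl/Bcl2l11 in KAT8-cKO (2.53 and 2.88). Just outside were Tmem230/Pcna (2.98) and Taf5/Atp5md (2.52) in WT and Srcap/Tmem265 (3.09) and Tsr3/Baiap3 (2.11) in KAT8-cKO. Within 100 bp of the limit, 79 WT peaks inside it had a median fold of 2.83 and 89 outside it 2.75. In KAT8-cKO, 79 inside had 2.72 and 86 outside 2.73.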

How the data were processed

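CUT&Tag for H4K16ac gave 1 deposited peak list (narrowPeak) per group: WT and KAT8-cKO macrophages treated with R848. The submitters' processing notes name mm10, Bowtie 0.12.8, MACS2 2.2.7.1 and DiffBind, without their roles. Filters, a control library and read depth: not given in the sources used here. In each list the deposited fold over background (column 7, a ratio), the deposited −log10 q-value (column 9) and the deposited display score (column 5, not used in any result) are the authors' peak caller's own values, used to rank or filter within a list.

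Peaks were read 1-based and intersected with 21883 protein-coding genes of RefSeq (GRCm38.p6) with Python 3.11.15, numpy 2.4.6 and pandas 2.3.3. The overlap code was tested on simulated intervals. Strand came from the RefSeq promoter table, which gave it for 17491 genes. None of the 510 protein-coding genes of chromosome 18 had a strand, so results by orientation, lone gene ends and promoters do not cover that chromosome. Pairs with a gene lacking strand were described without orientation. Peaks were assigned to the gene ends nearest the summit. Intervals are 95% Wilson intervals, and ratios of counts have log-normal intervals. Of 542 entries in 13 gene lists 540 were matched.

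Named peaks were, per list, the 10 highest by fold, the 5 highest by −log10 q, the 10 highest by fold without overlap, the 5 widest, the 5 with most genes, up to 4 genes per list and 25 pairs of general knowledge, of which only some are printed. A few named peaks are not reported here. The members, lists and comparisons were chosen with earlier results of these data known. With 1 library per group no test was run.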

Additional observations from a re-analysis of the deposited data

How the results depend on the processing

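With 1 library per group, neither replicates nor read depth can be used to judge the spread, and leaving out a library was not possible. No paired analysis was possible because each group had 1 library and no replicate number. The peak caller's threshold, which admits q-values over 0.05, sets how many weak peaks enter.

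Of 96 values recomputed under other settings, 66 stayed within the counting interval of the value reported (for counts of peaks, within 1.5 times it). With windows of 3 kb the gene-pair peaks numbered 3524 in WT and 3238 in KAT8-cKO and 55.8% and 62.0% were overlapped. With 500 bp 77.2% and 85.4% were overlapped. With only peaks past −log10 q 5 kept in both lists, gene-pair peaks numbered 484 and 236. Such KAT8-cKO peaks overlapped 38.2% of the 484, whereas the full KAT8-cKO list overlapped 96.3% of them. WT peaks past 5 overlapped 78.8% of the 236. The excess over single-gene peaks of like strength was then −0.490 points in WT (−5.30 to 4.32), the only one of these values that changed sign, and 2.34 in KAT8-cKO (−3.53 to 8.22), whose intervals also hold 0. In KAT8-cKO, 1011 remained among the strongest 20000 peaks and 1045 at pairs with separate bodies. In WT 67.2% were overlapped among the strongest 20000 peaks of each list, and 67.5% with both lists cut at a q under 0.05. Requiring 50% of a peak to be covered gave 57.0% and 67.6%, and requiring summits within 200 bp gave 50.7% and 53.9%, with an excess of 1.41 (−1.17 to 3.98) and 2.55 points (−0.112 to 5.21), whose intervals hold 0. Strength matched by fold gave an excess of 7.85 points in WT. For gene-pair peaks the ratio of KAT8-cKO to WT counts was 0.712 and 0.246 past −log10 q 2 and 10. It was 0.169 at a fold of at least 6. In the same order the ratios were 0.683, 0.301 and 0.175 for single-gene peaks and 0.732, 0.626 and 0.539 for all peaks. Past 20 the gene-pair ratio was 0.143, from only 14 WT and 2 KAT8-cKO peaks. Single-gene peaks past 20 numbered 35 and 14, and the ratio for all peaks was 0.958. At each of these cuts the intervals of the gene-pair and single-gene ratios overlapped. Head-to-head pairs made up 72.2% (WT) and 74.9% (KAT8-cKO) at a q under 0.05, and 64.3% in WT with bodies apart. The comparison of tail-to-tail peaks with single-gene peaks at 3′ ends, chosen after seeing the data, gave 0.0189 points in WT. The causes of these shifts were not tested.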
